A study of Mus musculus with 56 samples.

Results

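The genes described here are 39 interferon-stimulated genes, which cells switch on when an interferon binds its receptor. They were taken from a list of gene symbols that was chosen with earlier results of these data known. Comparisons of these genes with all genes are therefore descriptions. The brightest probe set of each symbol (the highest mean over all arrays) stood for the gene. Of the 39 genes, 37 had a probe set annotated to a single gene, and all 37 were bright enough to be tested among 12508 genes. Isg15 shares its probe set with another gene symbol in the annotation, and Ifi44 had no named probe set, so neither was analysed here. Each gene was followed over 56 mouse mammary tumors, within each host genotype.

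The tumors grew from p53-null mammary fragments that were not themselves irradiated, placed in the fat pads of female BALB/c hosts whose own mammary epithelium was removed at 3 weeks of age. Hosts were irradiated or sham-irradiated 3 days before transplantation, and the design asks what the host's exposure and its Tgfb1 genotype do to the tumor's expression profile. Wild-type hosts gave 9 sham and 23 irradiated tumors, and Tgfb1 heterozygote hosts gave 6 sham and 18 irradiated ones. Loss of p53 is shared by all 4 groups, controls included. The labels name no Tgfb1 variant in the transplanted fragments and give no radiation dose, no tumor age and no statement on whether tumors shared a host.

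Interferons signal through cell-surface receptors and Janus kinases. Type I interferons lead to a complex containing STAT2 and IRF9 that binds interferon-stimulated response elements (ISRE), while interferon gamma acts largely through gamma-activated sites (GAS). The induced genes include further regulators such as IRF7 and IRF1, sensors of foreign or misplaced nucleic acid, enzymes and binding proteins that block viruses, and chemokines that draw T cells. In tumors these genes can be expressed by the cancer cells as well as by stromal and immune cells.

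Values are log2 expression per probe set. Array medians lay between 5.92 and 6.00 (log2) in wild-type hosts and between 5.57 and 5.71 in heterozygote hosts, so the host genotypes look separately normalized and their levels were not compared with each other. The 18S ribosomal RNA control was below 11 on 4 of 9, 2 of 23, 1 of 6 and 2 of 18 arrays (sham and irradiated wild-type, then sham and irradiated heterozygote hosts). The epithelial marker list, 9 of 9 genes measured, had a mean level with group medians of 11.36 to 11.55, and single tumors ran down to 7.52. The level of a probe set depends on its probes, so levels were not compared between genes.

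The upstream sequence of the members was examined because they moved together across tumors, as described further on. RefSeq (GRCm38.p6) promoter windows were found for 30 of the 39 genes, and the 250 bases before the annotated start were searched on both strands. The ISRE core was written as GAAANN followed directly by GAAA, and the GAS core TTCNNNGAA. The ISRE core was present in 14 of 30 members (46.7%), against 2.64% of the 10055 tested genes with a window. The GAS core was present in 6 of 30 members (20%), against 5.72% of those genes. At least 1 of these cores was present in 17 of 30 members (56.7%) and in 8.03% of the genes tested. Overlapping matches were each counted for position and once per gene for the shares. A match to these letters is a description of the sequence and not a measured binding site. The genes were listed because interferon induces them, so shares above those of all genes come with the list. They are no result about these tumors.

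The windows of 8 genes are shown, read 5′ to 3′ on the gene's own strand and ending at the base before the start, with matches in capitals. Ifit1 (chr19:34640639-34640888, plus strand) holds 2 ISRE cores, which begin 104 and 85 bases before the start. Oas1a (chr5:120907526-120907775, minus strand) holds a GAS core 98 bases before the start and a pair of overlapping ISRE cores 20 and 14 bases before it. They are shown as effector windows with several matches. Among the other effectors with a window, Ifit3, Oas3, Rsad2 and Bst2 held an ISRE core, Ifit2 and Eif2ak2 a GAS core only, and Oasl1, Oasl2 and Samd9l neither.
Ifit1: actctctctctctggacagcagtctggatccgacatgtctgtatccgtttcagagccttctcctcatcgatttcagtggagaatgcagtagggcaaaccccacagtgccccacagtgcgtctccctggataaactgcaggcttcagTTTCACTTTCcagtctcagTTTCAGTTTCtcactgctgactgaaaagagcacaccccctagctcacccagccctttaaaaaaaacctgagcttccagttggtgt
Oas1a: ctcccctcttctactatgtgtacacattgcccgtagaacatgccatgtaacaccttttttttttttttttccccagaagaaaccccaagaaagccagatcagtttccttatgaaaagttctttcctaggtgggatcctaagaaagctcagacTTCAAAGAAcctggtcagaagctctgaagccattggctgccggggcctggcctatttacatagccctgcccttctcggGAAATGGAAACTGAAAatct

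Among the interferon-inducible GTPases Igtp, Irgm1, Gbp2 and Gbp3 held matches, and Ifi47 held neither core in its window. The windows of Igtp, Irgm1 and Gbp3 are shown because their matches lie close to the start. In Igtp (chr11:58199306-58199555, plus strand) a GAS core lay 45 bases and an ISRE core 34 bases before the start. Irgm1 (chr11:48871421-48871670, minus strand) had overlapping ISRE cores 30 and 24 bases before the start, and Gbp3 (chr3:142559794-142560043, plus strand) had overlapping ones 45 and 39 bases before it.
Igtp: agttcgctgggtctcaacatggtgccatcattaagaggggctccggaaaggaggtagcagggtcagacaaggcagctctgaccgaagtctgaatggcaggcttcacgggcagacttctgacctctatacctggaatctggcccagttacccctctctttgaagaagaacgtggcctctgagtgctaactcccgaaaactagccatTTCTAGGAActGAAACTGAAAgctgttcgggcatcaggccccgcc
Irgm1: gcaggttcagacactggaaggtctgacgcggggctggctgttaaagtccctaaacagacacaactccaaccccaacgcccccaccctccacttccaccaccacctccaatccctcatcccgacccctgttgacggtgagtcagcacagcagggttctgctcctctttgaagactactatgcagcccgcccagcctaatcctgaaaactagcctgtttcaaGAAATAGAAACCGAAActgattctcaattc
Gbp3: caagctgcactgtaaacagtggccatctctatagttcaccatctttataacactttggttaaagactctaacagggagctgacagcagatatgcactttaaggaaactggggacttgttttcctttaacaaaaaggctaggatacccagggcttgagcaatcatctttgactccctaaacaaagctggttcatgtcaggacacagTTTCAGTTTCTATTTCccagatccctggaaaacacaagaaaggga

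Cxcl10 (chr5:92348890-92349139, minus strand) held an ISRE core 213 bases before the start, near the far end of the window. Irf1 (chr11:53769764-53770013, plus strand) held a GAS core 90 bases before the start and no ISRE core. Irf7 (chr7:141266425-141266674, minus strand) is shown because its expression followed most other members closely, while neither set of letters is in this window.
Cxcl10: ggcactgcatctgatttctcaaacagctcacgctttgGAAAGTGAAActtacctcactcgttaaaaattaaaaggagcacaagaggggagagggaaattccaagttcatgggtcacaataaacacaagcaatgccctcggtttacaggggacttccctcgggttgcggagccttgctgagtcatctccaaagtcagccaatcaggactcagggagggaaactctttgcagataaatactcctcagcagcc
Irf1: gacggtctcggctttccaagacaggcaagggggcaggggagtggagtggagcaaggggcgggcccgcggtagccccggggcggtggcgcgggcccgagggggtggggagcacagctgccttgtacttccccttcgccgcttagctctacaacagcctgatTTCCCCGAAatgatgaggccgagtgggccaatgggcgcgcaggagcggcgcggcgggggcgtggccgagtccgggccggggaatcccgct
Irf7: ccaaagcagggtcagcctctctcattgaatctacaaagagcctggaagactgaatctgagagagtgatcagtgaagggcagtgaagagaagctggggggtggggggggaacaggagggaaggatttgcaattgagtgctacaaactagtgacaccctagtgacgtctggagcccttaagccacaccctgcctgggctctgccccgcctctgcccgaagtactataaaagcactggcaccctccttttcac

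The members differed strongly between tumors of the same group. The SD within groups, pooled over the 4 groups, had a median of 1.03 (log2) over the 37 members, against 0.41 over all genes tested, and 37 of 37 members lay above that median. It ran from 0.50 for Irf1 to 1.32 for Cxcl9, and 19 members were among the 10% of genes with the largest spread. Irf9 (0.51), Eif2ak2 (0.55), Ddx58 (0.63) and Ifi35 (0.64) were also at the low end. Because the list was chosen with earlier results of these data known, its place among all genes is a description. In bulk tumor RNA, fewer cells of a type and less RNA per cell cannot be told apart.

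A few tumors were low or high for nearly every member. The median of the 37 members per tumor ran from 9.24 to 10.98 (log2) in sham-irradiated wild-type hosts, with a group median of 9.65, and from 7.66 to 11.44 in irradiated wild-type hosts, with a group median of 10.26. In heterozygote hosts it ran from 8.95 to 10.59 (median 9.19) in sham-irradiated and from 7.91 to 10.77 (median 9.48) in irradiated hosts. In tumor 16 of irradiated wild-type hosts, 36 of 37 members were more than 2-fold below their median over wild-type host tumors, as were 32 in tumor 57, 30 in tumor 39 and 27 in tumor 21. Among irradiated heterozygote hosts, tumor 50 had 32 such members, tumor 4 had 24 and tumor 29 had 18. In the smaller sham groups the most such members in a tumor were 9 (tumor 46) in wild-type and 11 (tumors 19 and 52) in heterozygote hosts. A difference in spread between sham and irradiated groups was not tested. At the high end, tumors 48, 12 and 44 of irradiated wild-type hosts had 29, 28 and 28 members more than 2-fold above that median.

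High tumors were found among sham-irradiated hosts too. Tumor 61 of sham-irradiated wild-type hosts had 21 members more than 2-fold above the genotype's median and tumor 60 had 10. The 18S control of these arrays was 9.49 and 9.44, among the low ones. Tumors 30 and 58 of sham-irradiated heterozygote hosts had 22 and 18 such members, with 18S values of 12.49 and 12.52. Tumors 64 and 65 of sham-irradiated wild-type hosts, with 18S values of 9.28 and 9.62, had 0 and 1 such member. The part of the 18S control in the members' levels was not tested beyond the settings given with the irradiation results.

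**Figure D1:**
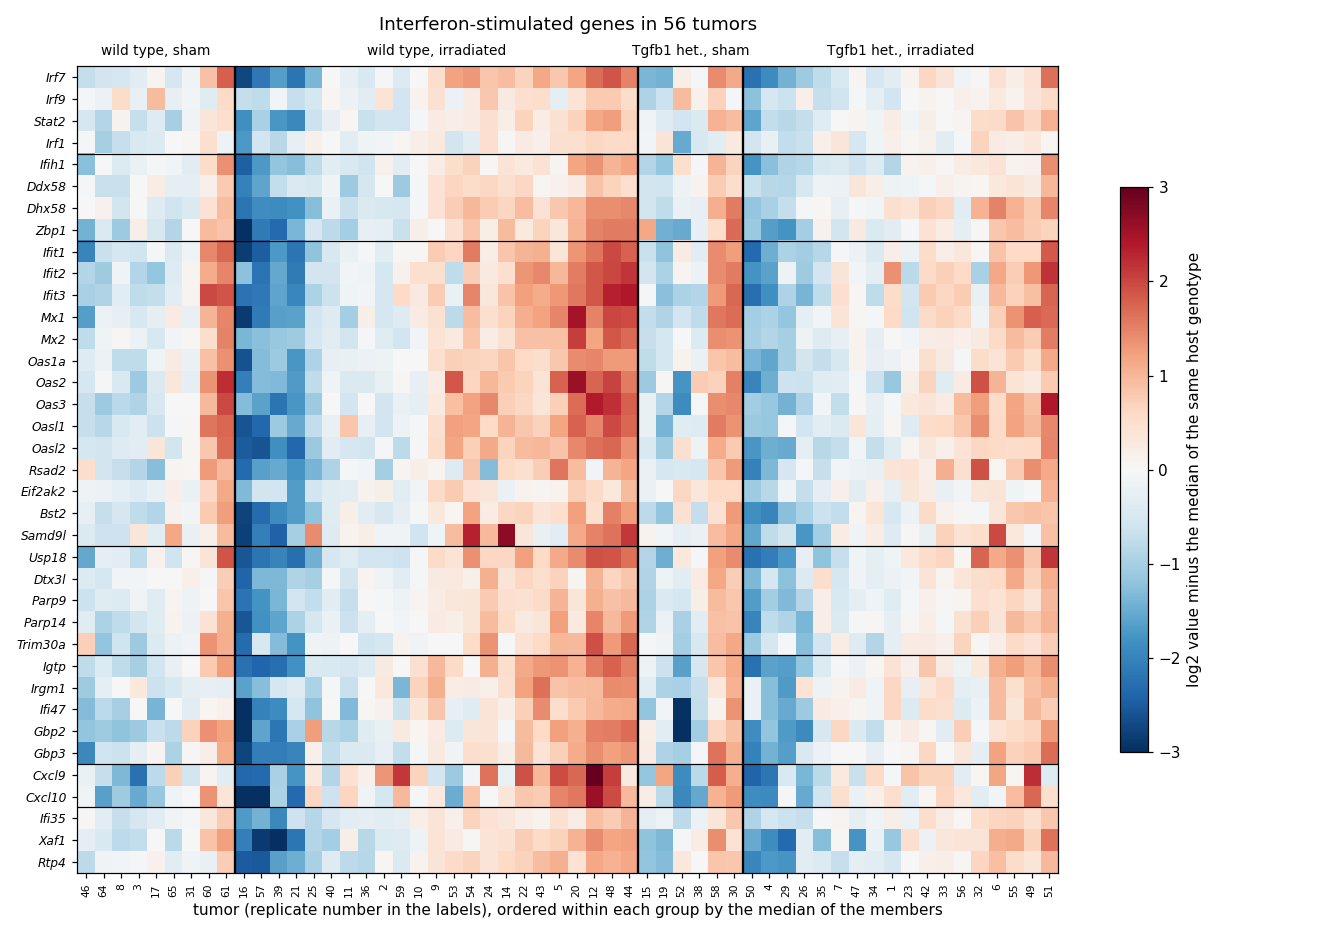
Heat map of the 37 members (rows, grouped by role) in each of the 56 tumors (columns, named by replicate number and ordered within a group by the median of the members). Colour is the log2 value minus the gene's median over tumors of the same host genotype, limited to 3 either way. Tumor 16 of irradiated wild-type hosts, with 36 members more than 2-fold low, is blue in nearly every row.

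Host irradiation was compared with sham irradiation within each host genotype. No member passed the threshold: 0 of 37 had a limma adjusted p under 0.05 in wild-type hosts, where 0% of all genes tested passed, and 0 of 37 in heterozygote hosts, where 0% passed. At an unadjusted p under 0.05 the counts were 0 of 37 in wild-type hosts, where 7.07% of all genes passed, and 0 of 37 in heterozygote hosts, where 5.84% passed. The lowest adjusted p of any member was 0.707 in wild-type and 0.903 in heterozygote hosts. For each of the 37 genes and in each genotype, the ranges of irradiated and sham tumors overlapped. The share of all genes with such overlap was not computed, so this is not a result particular to the members.

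In wild-type hosts 26 of 37 members had a positive log2 fold change (irradiated minus sham), against 49.3% of all genes tested, and the members' median was 0.15 against -0.0028 for all genes. In heterozygote hosts 13 of 37 were positive, against 51.8% of all genes, with a median of -0.14. Members vary together, so these counts are not 37 separate observations. The wild-type median followed the array set: it was 0.54, with 36 positive members, without the arrays of low 18S control, 0.37 with array weights and -0.03, with 17 positive members, with the 18S control as a covariate. It lay between 0.04 and 0.30 when single tumors were left out, the lowest without sham tumor 46 and the highest without sham tumor 61. The heterozygote median was 0.13 without sham tumor 30 and 0.10 without sham tumor 58, with 28 positive members each time. For 31 of 37 members in heterozygote hosts and 17 of 37 in wild-type hosts, the sign of the difference turned when some single tumor was left out. In heterozygote hosts the median of each role group turned in the same way. The number of members called was 0 under each of these settings.

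**Figure D2:**
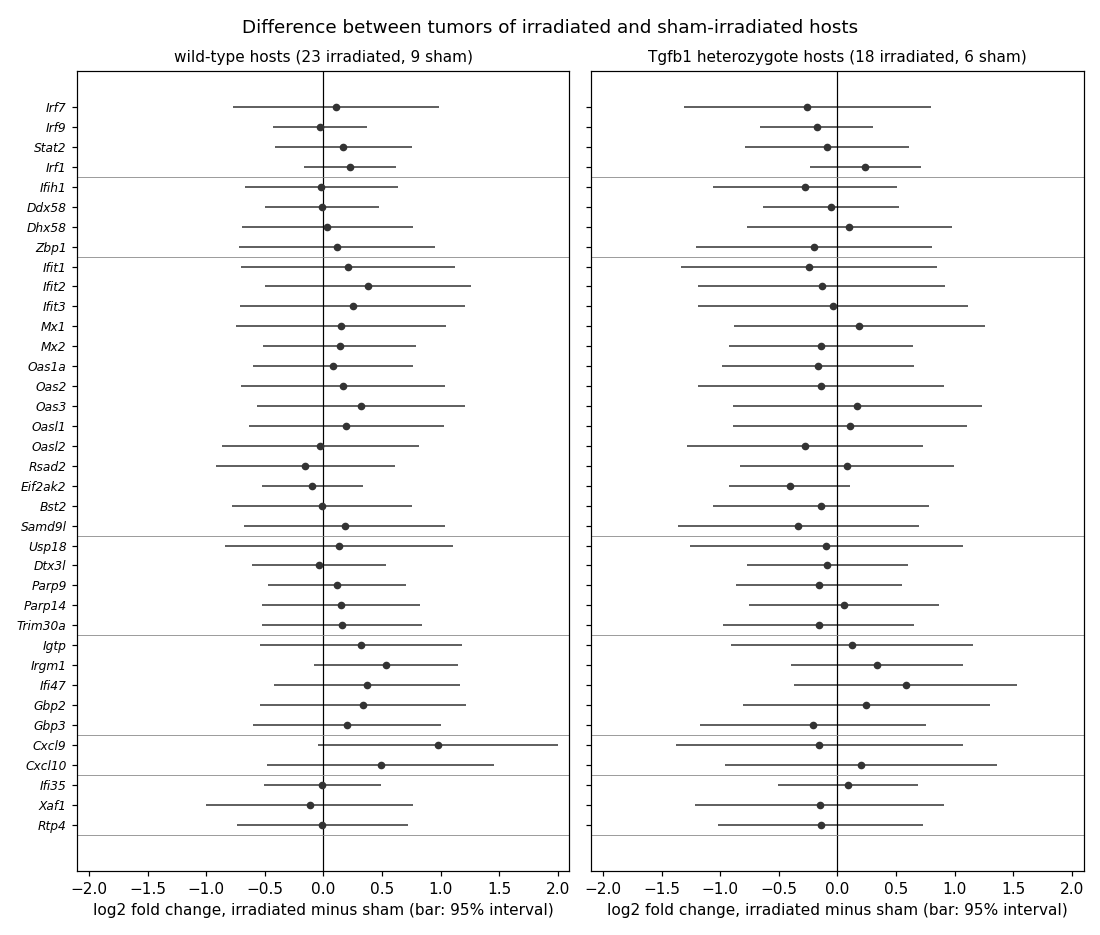
Log2 fold change of each member, irradiated minus sham, in wild-type hosts (left) and Tgfb1 heterozygote hosts (right), with 95% intervals from the limma fit; grey lines separate the roles. The intervals of all 37 members include 0 in each panel, and Cxcl9 in wild-type hosts lies farthest to the right at 0.98.

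The size of difference that the data leave possible varied between genes. The 95% interval had a median half-width of 0.80 (log2) in wild-type hosts and 0.95 in heterozygote hosts. It excluded a 2-fold difference in either direction for 20 of 37 members in wild-type hosts and for 14 of 37 in heterozygote hosts. For the irradiation effect averaged over host genotypes the median half-width was 0.62, and 34 of 37 intervals excluded a 2-fold difference.

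The differences of means of the transcription factors lay between -0.03 and 0.23 in wild-type and between -0.26 and 0.24 in heterozygote hosts. Irf7 amplifies the type I response and is itself induced by it. Its level (lowest, median and highest tumor) was 9.92, 10.29 and 12.44 in sham-irradiated and 7.92, 11.16 and 12.53 in irradiated wild-type hosts. In heterozygote hosts it was 8.90, 10.40 and 11.74 in sham-irradiated and 8.08, 10.28 and 11.98 in irradiated hosts. The irradiated wild-type tumors thus reached both lower and slightly higher than the sham tumors. The difference of means was 0.11 (SE 0.44, n = 23 and 9, limma adjusted p = 0.979) in wild-type and -0.26 (SE 0.52, n = 18 and 6, limma adjusted p = 0.974) in heterozygote hosts. The 95% intervals were wide, -0.77 to 0.99 and -1.31 to 0.80.

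Stat2 and Irf9 encode parts of the complex that binds the ISRE. Stat2 was 6.67, 7.27 and 8.16 in sham-irradiated and 5.74, 7.84 and 8.92 in irradiated wild-type hosts, and 6.63, 6.97 and 8.24 against 5.63, 7.25 and 8.26 in heterozygote hosts. Its difference was 0.17 (SE 0.29) and -0.09 (SE 0.35). The second probe set of Stat2 gave 0.24 and 0.13, so the sign in heterozygote hosts depended on the probe set. The sham and irradiated ranges of Stat2 overlapped widely. Irf9 was 8.82, 9.10 and 10.13 against 8.42, 9.30 and 9.99 in wild-type hosts, and 8.01, 8.99 and 9.88 against 7.71, 8.94 and 9.52 in heterozygote hosts. Its difference was -0.03 (SE 0.20) and -0.18 (SE 0.24).

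Irf1, which responds strongly to interferon gamma, had the lowest p of the transcription factors in each genotype. It was 9.56, 10.42 and 11.06 in sham-irradiated and 8.84, 10.63 and 11.18 in irradiated wild-type hosts, and 8.91, 10.21 and 10.82 against 9.69, 10.47 and 11.09 in heterozygote hosts. The medians of irradiated tumors lay above those of sham tumors, with ranges that overlapped nearly throughout. The difference was 0.23 (SE 0.20, limma adjusted p = 0.882) and 0.24 (SE 0.23, limma adjusted p = 0.940), and averaged over genotypes it was 0.23 (SE 0.15, limma adjusted p = 0.744).

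**Figure D3:**
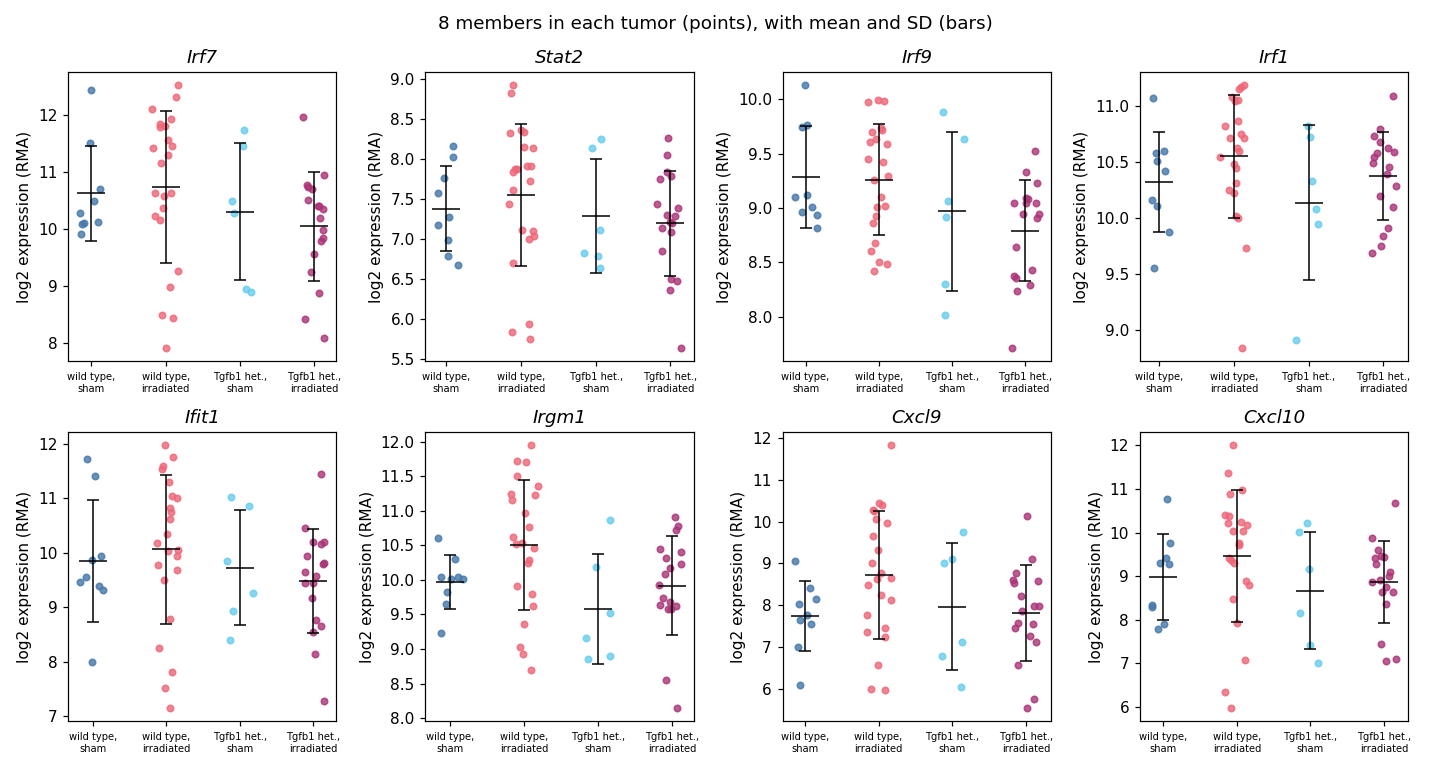
Log2 expression of 8 members in each tumor (points) by group, with the mean and SD as bars; each panel has its own vertical axis. In each panel the groups overlap, and for Cxcl9 the highest tumor, at 11.83, is from an irradiated wild-type host.

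The nucleic acid sensors comprise Ddx58, Ifih1 and Dhx58, helicases that detect RNA in the cytoplasm or tune that detection, and Zbp1, which binds Z-form nucleic acid and can start cell death. Their differences had a median of 0.01 in wild-type and -0.13 in heterozygote hosts. Ifih1 was 8.96, 10.35 and 11.14 in sham-irradiated and 8.36, 9.93 and 11.51 in irradiated heterozygote hosts, and 3 of 18 irradiated tumors lay above the sham median. The Ifih1 difference there was -0.27 (SE 0.39, limma adjusted p = 0.964), against -0.02 (SE 0.33) in wild-type hosts. Zbp1 in wild-type hosts was 8.07, 9.05 and 10.44 in sham and 6.15, 9.66 and 11.04 in irradiated tumors, a difference of 0.12 (SE 0.42). For Ddx58, other probe sets of the gene gave 0.34 and 0.10 in wild-type hosts, where the chosen one gave -0.01.

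The 14 antiviral effectors had positive differences for 10 genes in wild-type hosts and for 4 in heterozygote hosts, with medians of 0.16 and -0.14. This group holds the Ifit proteins, which bind viral RNA, the Mx GTPases, the oligoadenylate synthetase genes Oas1a, Oas2, Oas3, Oasl1 and Oasl2, the RNA-activated kinase Eif2ak2, the tetherin Bst2, Rsad2 and Samd9l. Ifit1 was 7.998, 9.56 and 11.72 in sham-irradiated and 7.14, 10.19 and 11.98 in irradiated wild-type hosts, a difference of 0.21 (SE 0.46, limma adjusted p = 0.964). Heterozygote hosts had 8.40, 9.56 and 11.03 against 7.28, 9.61 and 11.45, a difference of -0.24 (SE 0.55, limma adjusted p = 0.978). Ifit2 had the lowest p of the effectors in wild-type hosts, at 0.38 (SE 0.44, limma adjusted p = 0.917). Its tumors spanned 8.52 to 11.14 in sham-irradiated and 7.46 to 11.83 in irradiated hosts.

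The remaining effectors apart from Eif2ak2 had differences from -0.15 (Rsad2) to 0.32 (Oas3) in wild-type hosts and from -0.33 (Samd9l) to 0.19 (Mx1) in heterozygote hosts. Mx1, Oas3 and Oasl1 were positive in each genotype (0.15 and 0.19, 0.32 and 0.17, 0.20 and 0.11), while Oasl2 and Bst2 were negative in each (-0.02 and -0.28, -0.01 and -0.14). These signs were not stable: in heterozygote hosts Oas3 was at -0.20 without sham tumor 52, Oasl1 at -0.19 without sham tumor 19 and Bst2 at 0.14 without sham tumor 30, and in wild-type hosts Oasl2 and Bst2 were at 0.18 and 0.16 without sham tumor 61. Mx1 was 6.61, 8.05 and 9.74 in sham-irradiated and 5.40, 8.52 and 10.76 in irradiated wild-type hosts, and 6.72, 6.95 and 9.29 against 6.45, 7.83 and 9.40 in heterozygote hosts. Its irradiated and sham tumors overlapped over most of their range.

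Eif2ak2 was the effector with the lowest p in heterozygote hosts. It was 8.87, 9.54 and 9.70 in sham-irradiated and 8.01, 8.98 and 10.11 in irradiated tumors. Only 1 of 18 irradiated tumors lay above the sham median. The difference of means was -0.41 (SE 0.26, limma adjusted p = 0.903), and in wild-type hosts it was -0.09 (SE 0.21). The remaining probe sets of the gene gave 0.27 and 0.19 in heterozygote hosts and followed the chosen one with r of 0.44 and 0.53 there, so the direction was not shared by all probe sets of Eif2ak2.

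Of the modifiers, Usp18 removes ISG15 from proteins and dampens receptor signalling, Dtx3l is a ubiquitin ligase partnered with Parp9, Parp14 is an ADP-ribosyltransferase and Trim30a belongs to the tripartite motif family. Their differences lay between -0.04 and 0.16 in wild-type hosts and between -0.16 and 0.06 in heterozygote hosts. Usp18 spanned 8.80 to 12.23 in sham-irradiated and 7.77 to 12.25 in irradiated wild-type hosts, with medians of 10.07 and 10.74. Its heterozygote host tumors spanned 8.38 to 11.25 and 7.60 to 11.98, with medians of 9.96 and 9.79. Trim30a had the lowest p of the modifiers in wild-type hosts (0.16, SE 0.34) and Parp9 in heterozygote hosts (-0.16, SE 0.35).

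The interferon-inducible GTPases act on membranes around intracellular pathogens and are known targets of interferon gamma. All 5 had positive differences in wild-type hosts and 4 of 5 in heterozygote hosts, with medians of 0.33 and 0.24. The heterozygote count rested on sham tumor 52, without which 2 of 5 were positive and the median was -0.17. Irgm1 was 9.24, 10.02 and 10.61 in sham-irradiated and 8.69, 10.53 and 11.95 in irradiated wild-type hosts, and 16 of 23 irradiated tumors lay above the sham median. In heterozygote hosts it was 8.86, 9.34 and 10.87 against 8.14, 10.01 and 10.91, with 16 of 18 irradiated tumors above the sham median. The difference was 0.53 (SE 0.31, 1.45-fold, limma adjusted p = 0.756) and 0.34 (SE 0.37, limma adjusted p = 0.955). Averaged over genotypes it was 0.44 (SE 0.24, limma adjusted p = 0.689), the lowest p of any member in that comparison.

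Ifi47 had the lowest p of the GTPases in heterozygote hosts. It was 7.49, 10.06 and 11.79 in sham-irradiated and 8.94, 10.56 and 11.43 in irradiated tumors, a difference of 0.58 (SE 0.48, limma adjusted p = 0.925). The sham group held the lowest tumor (52) and the highest (30) of that genotype. Without tumor 52 the difference was 0.11, and without tumor 30 it was 0.97. Gbp2 and Gbp3, guanylate-binding proteins, had differences of 0.33 (SE 0.44) and 0.20 (SE 0.40) in wild-type hosts and 0.24 (SE 0.53) and -0.21 (SE 0.48) in heterozygote hosts. Igtp, a relative of Irgm1, was at 0.32 and 0.12. Without sham tumor 52 the heterozygote differences were -0.29 for Gbp2, -0.44 for Gbp3, -0.17 for Igtp and 0.19 for Irgm1.

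The chemokines Cxcl9 and Cxcl10 bind the receptor CXCR3 on T and natural killer cells. Cxcl9 was 6.09, 7.77 and 9.05 in sham-irradiated and 5.97, 8.64 and 11.83 in irradiated wild-type hosts. The highest irradiated tumors, tumor 12 above all, lay beyond every sham tumor, while the lower ends were alike and the groups overlapped. The difference of means was 0.98 (SE 0.51, 1.97-fold, 95% interval -0.04 to 1.998, limma adjusted p = 0.707), the largest of the 37 members. The dimmer probe set of Cxcl9 gave 0.38. In heterozygote hosts Cxcl9 was 6.03, 8.07 and 9.74 against 5.53, 7.93 and 10.14, a difference of -0.15 (SE 0.61, limma adjusted p = 0.986).

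Cxcl10 was 7.79, 9.27 and 10.76 in sham-irradiated and 5.97, 9.77 and 12.003 in irradiated wild-type hosts, a difference of 0.49 (SE 0.48, limma adjusted p = 0.905). Heterozygote hosts had 7.01, 8.66 and 10.22 against 7.05, 8.95 and 10.68, a difference of 0.20 (SE 0.58, limma adjusted p = 0.980). Without the arrays of low 18S control the Cxcl9 difference in wild-type hosts was 1.46 (limma adjusted p = 0.489). The last 3 members, Xaf1, Rtp4 and Ifi35, lay near 0 in wild-type hosts (-0.12, -0.01 and -0.01) and at -0.15, -0.14 and 0.09 in heterozygote hosts.

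The irradiation effect was compared between host genotypes by the interaction term of the limma fit. It was called for 0 of 37 members, where 0% of all genes were called, and reached an unadjusted p under 0.05 for 0 of 37, where 4.84% of all genes did. The difference (heterozygote minus wild-type effect) was positive for 6 of 37 members, against 51.8% of all genes, and had a median of -0.22. Cxcl9 had the largest, -1.13 (SE 0.79, limma adjusted p = 0.999). The intervals were wide, with a median half-width of 1.24, and excluded a 2-fold difference for 6 of 37 members. Without sham tumor 30 of heterozygote hosts the median was 0.04, with 21 positive members. It was -0.67, with 2 positive members, without the arrays of low 18S control, -0.50, with 0 positive, with array weights and -0.07, with 12 positive, with the 18S covariate. For the average over genotypes 0 of 37 members were called, where 0.00799% of all genes were, and 0 of 37 had an unadjusted p under 0.05, where 7.77% did. There 19 members were positive, against 50.4% of all genes. Without the arrays of low 18S control 35 were positive (median 0.21), 3 members had an unadjusted p under 0.05, and with array weights 31 were positive (median 0.11).

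Across tumors the members varied together. Group means were removed and Pearson's r was taken for each of the 666 pairs of members within each host genotype, as a description. The values of a tumor share 1 array, its labelling and its RNA quality. Over the 32 tumors of wild-type hosts the median r was 0.84, from 0.33 to 0.98, and 98.5% of pairs exceeded 0.5, against 3.50% of all gene pairs. Over the 24 tumors of heterozygote hosts the median was 0.76, from -0.14 to 0.97, and 92.2% of pairs exceeded 0.5, against 3.69% of all gene pairs. The median r of all gene pairs was near 0 (-0.0001 and -0.001). The comparison with all gene pairs is also a description, as the list was chosen with earlier results known. Without the arrays of low 18S control the members' medians were 0.84 and 0.74, and without the 2 tumors farthest from the median of the members they were 0.79 and 0.69.

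The closeness differed between members. Irf7 had a median r of 0.91 with the other members in wild-type hosts and 0.83 in heterozygote hosts, its nearest genes being Oasl2 (0.98) and Ifit1 (0.96). Oasl2, Usp18, Oas1a and Igtp had medians of 0.91, 0.90, 0.90 and 0.89 in wild-type hosts, and Stat2 had the highest in heterozygote hosts (0.85). Effectors were found at the loose end too, such as Samd9l (0.72 in wild-type hosts) and Eif2ak2 (0.66 in heterozygote hosts). Some neighbouring genes were close, with Ifit2 and Ifit3 at 0.97 and 0.92 and Parp9 and Dtx3l at 0.97 and 0.97. Other neighbours lay nearer to the median of all member pairs, with Oas2 and Oas3 at 0.92 and 0.79, Gbp2 and Gbp3 at 0.90 and 0.82 and Cxcl9 and Cxcl10 at 0.85 and 0.78, and neighbours were not tested against other pairs. Of the 39 listed genes 37 could be placed on the genome by RefSeq, and 14 had another member as a neighbour with at most 3 coding genes between, in 6 clusters. The probe set of Ifit3 could also read its near-identical copy Ifit3b, and the closely related Oas genes and Gbp genes could share signal, so their values are uncertain to that extent.

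Irf1, Irf9 and Cxcl9 were among the members least close to the rest, though Irgm1 (0.71) and Samd9l (0.72) were level with Irf1 in wild-type hosts and Ifi47 (0.62) was near Cxcl9 in heterozygote hosts. Irf1 had a median r of 0.71 in wild-type and 0.45 in heterozygote hosts, and its nearest member was the GTPase Gbp2 (0.86 and 0.80). Irf9 had medians of 0.64 and 0.57, and Irf9 with Irf1 gave the lowest value in heterozygote hosts, -0.14. Without sham tumor 52 of heterozygote hosts, in which Irf1 was lowest and Irf9 highest of its group, the lowest pair of any members there was 0.13. Cxcl9 had medians of 0.64 and 0.60, nearest to Cxcl10 (0.85 and 0.78). The 13 measured members with an ISRE core in the window had a median r of 0.87 and 0.80, against 0.84 and 0.74 for the 15 with a window and no such core, ranges that overlap widely.

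**Figure D4:**
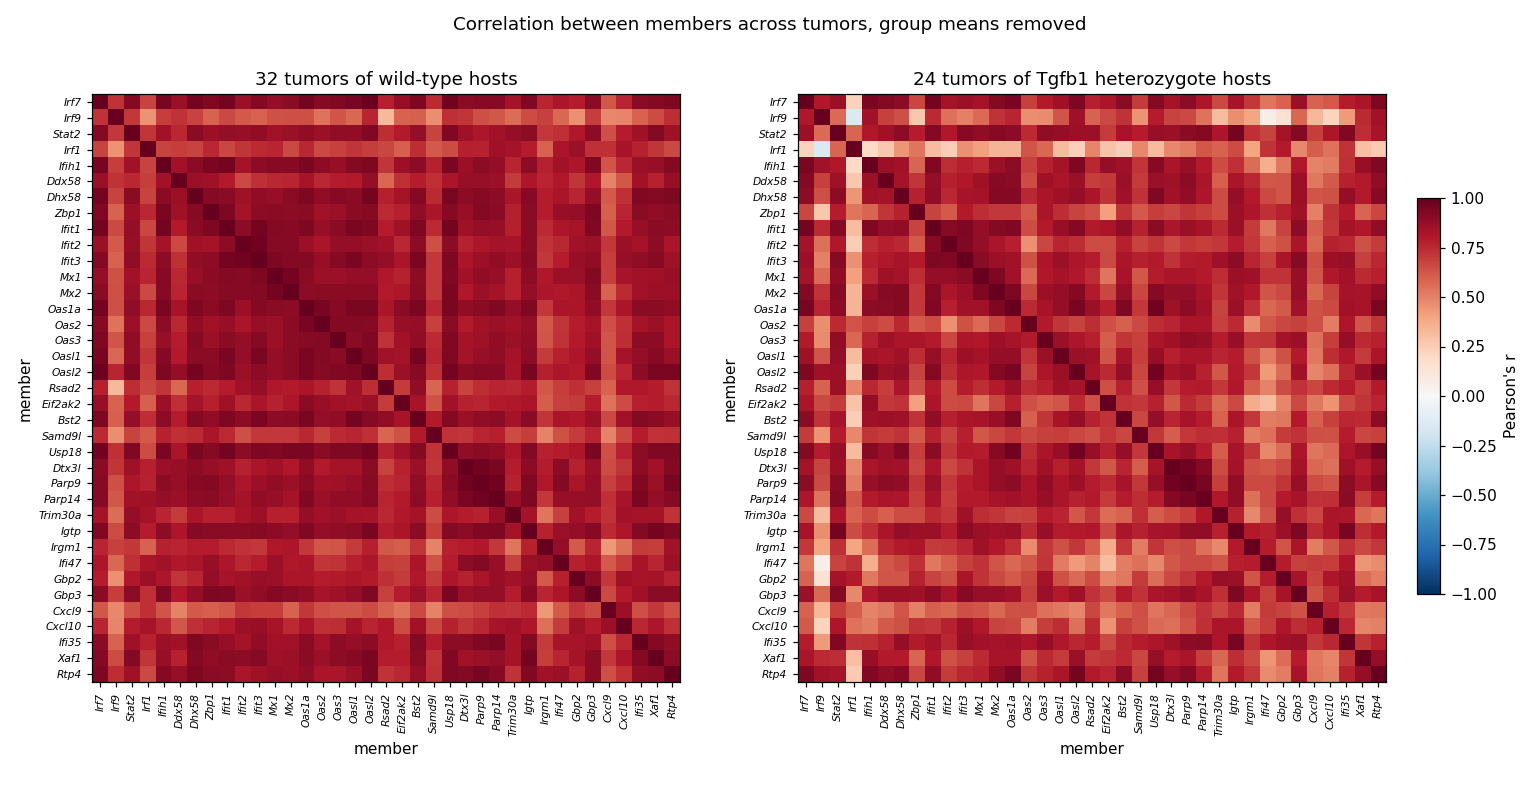
Pearson's r between each pair of the 37 members, after removal of group means, in 32 tumors of wild-type hosts (left) and 24 of Tgfb1 heterozygote hosts (right); the colour scale runs from -1 to 1. Irf9, Irf1 and Cxcl9 are among the paler rows, and the palest cell is Irf9 with Irf1 in heterozygote hosts at -0.14.

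A set of 19 named pairs was tested in each genotype on the log2 values, without removal of group means (38 correlations, 100000 permutations, two-sided, Benjamini-Hochberg over the 38). Of these 25 passed, and 23 passed without the 2 tumors farthest from the median of the pair's leading gene. The test compares each pair with no relation at all. All member pairs had a median r of 0.84 in wild-type and 0.76 in heterozygote hosts, after removal of group means. A pass by a pair of members therefore adds little to that. The share of other pairs that would pass was not computed. The smallest p that the permutations can give is 1e-05. Irf7 with Usp18 gave r = 0.97 and rho = 0.94 in wild-type hosts (permutation p = 1e-05 for each, adjusted 3.17e-05 and 3.45e-05) and r = 0.96 without the 2 tumors. In heterozygote hosts it gave r = 0.92 and rho = 0.91 (permutation p = 1e-05 for each, adjusted 3.17e-05 and 3.45e-05) and r = 0.88 without the 2 tumors. Irf7 with Ifit1 gave r of 0.96 in each genotype.

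Stat2 with Irf9 was looser. It gave r = 0.70 and rho = 0.69 in wild-type hosts (permutation p = 2e-05 and 3e-05, adjusted 5.43e-05 and 8.77e-05) and r = 0.62 without the 2 tumors. In heterozygote hosts r was 0.57 and rho 0.49 (permutation p = 0.00352 and 0.0157, adjusted 0.00608 and 0.0229). There r was 0.38 without the 2 tumors (adjusted permutation p = 0.115), so that relation rests on those tumors.

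Cxcl9 passed in each genotype with Cxcl10, Irf1, Gbp2 and Irf7 and with the T-cell genes Cd8a and Cd3e. With Gbp2 it gave r of 0.71 and 0.67 in wild-type and heterozygote hosts, and with Irf7 0.60 and 0.59. With Irf1 it gave r = 0.74 and rho = 0.77 in wild-type hosts (permutation p = 1e-05 for each, adjusted 3.17e-05 and 3.45e-05), and r = 0.58 and rho = 0.59 in heterozygote hosts (permutation p = 0.00313 and 0.00312, adjusted 0.00566 and 0.00593). These were 0.69 and 0.53 without the 2 tumors. With Cd8a, the co-receptor of cytotoxic T cells, it gave r = 0.62 and rho = 0.67 in wild-type hosts (permutation p = 0.0001 and 5e-05, adjusted 0.000253 and 0.000136). In heterozygote hosts r was 0.50 and rho 0.52 (permutation p = 0.013 and 0.0102, adjusted 0.0206 and 0.0162), and without the 2 tumors r was 0.57 and 0.49. With Cd3e it gave r of 0.49 and 0.45, which in wild-type hosts was 0.37 (adjusted permutation p = 0.0655) without the 2 tumors. The Cd8a probe set was dim: its mean was 5.65 (log2), and it lay above the overall median, 5.83, on only 9 arrays. The r of Cxcl9 with Cd8a therefore describes mostly dim values. With Ifng, Cxcl9 passed in wild-type hosts (r = 0.53, adjusted permutation p = 0.00362) and not in heterozygote hosts (r = 0.125). In wild-type hosts r was 0.37 (adjusted permutation p = 0.0655) without the 2 tumors. Ifng lay above the overall median on 0 arrays, so that r rests on dim values only.

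Irf7 did not pass with the immune cell genes. With Cd3e r was 0.04 and 0.12, with the macrophage gene Cd68 0.05 and -0.15, with the leukocyte gene Ptprc 0.24 and -0.19, and with Siglech, a marker of plasmacytoid dendritic cells, 0.29 and 0.19 (adjusted permutation p of r from 0.141 to 0.807). With the epithelial gene Epcam the measures disagreed: r was 0.21 and rho 0.52 in wild-type hosts (permutation p = 0.255 and 0.00264, adjusted 0.323 and 0.00557), and r was 0.38 and rho 0.01 in heterozygote hosts (permutation p = 0.0633 and 0.948, adjusted 0.0925 and 0.948). Without the 2 tumors r was 0.27 and 0.58.

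Genes of the same pathway outside the members were taken from lists that were also chosen with earlier results of these data known. No gene of these lists was called for host irradiation in either genotype, where 0% of all genes were called. Of 19 listed interferon ligand genes, only Ifnz passed the filter on dim probe sets. Ifnb1 lay between 3.62 and 4.99 and Ifng between 2.85 and 3.97 (log2) over all tumors, below the median of all values, 5.83, on every array. Ifnz was 6.92, 7.76 and 8.63 in sham-irradiated and 5.77, 6.62 and 7.86 in irradiated heterozygote hosts, a difference of -1.20 (SE 0.30, limma adjusted p = 0.627). Its median r with the members was -0.33 in wild-type and -0.16 in heterozygote hosts.

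Of 15 receptor and signalling genes 14 were tested. The irradiation difference was positive for 9 of 14 in wild-type and for 12 of 14 in heterozygote hosts, with medians of 0.06 and 0.18. Among all genes 49.3% and 51.8% were positive. The alternative settings used for the members were not run for this list. The averaged irradiation difference was positive for 14 of 14, against 50.4% of all genes, with a median of 0.13. An unadjusted p under 0.05 was found for 2 of 14, against 7.77% of all genes: the feedback inhibitor Socs3 (0.51, SE 0.19, limma adjusted p = 0.477) and the phosphatase Ptpn6 (0.16, SE 0.08, limma adjusted p = 0.638). In wild-type hosts the lowest p was that of Socs1, another inhibitor of the Janus kinases, at 0.44 (SE 0.22, limma adjusted p = 0.702). These genes did not follow the members closely. Their median r with the members, taken over genes, was 0.28 in wild-type and -0.05 in heterozygote hosts, and 0 of 14 exceeded 0.5. The highest was Jak2 (0.40) in wild-type and Ifnlr1 (0.43) in heterozygote hosts.

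Of 18 sensor, adaptor and interferon-inducing genes 16 were tested. Their median r over genes was 0.36 and 0.18, with 6 and 5 genes above 0.5. The ubiquitin ligase Trim25 was highest in wild-type hosts (0.78) and the nucleotide hydrolase Samhd1 in heterozygote hosts (0.74), both known to be interferon-induced, while the adaptor Ticam1 was lowest (-0.46 and -0.27). For irradiation, Sting1, the adaptor of cytoplasmic DNA sensing, had the lowest p in heterozygote hosts at 0.46 (SE 0.22, limma adjusted p = 0.838).

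Another 48 interferon-induced genes were listed and 40 tested. Of these 27 had a positive irradiation difference in wild-type hosts (median 0.12) and 26 in heterozygote hosts (median 0.07), with 0 of 40 at an unadjusted p under 0.05 in each. They followed the members: the median r over genes was 0.75 and 0.67, and 36 and 32 of 40 exceeded 0.5. Phf11d (0.87) was highest in wild-type hosts and Trim21 (0.83), an antibody receptor in the cytoplasm, in heterozygote hosts. Genes of antigen presentation were among them, such as the peptide transporter Tap1 (0.77 and 0.78) and the immunoproteasome subunit Psmb8 (0.78 and 0.77). Ifitm2 (0.06) was lowest in wild-type hosts and Ifitm1 (-0.21) in heterozygote hosts.

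**Figure D5:**
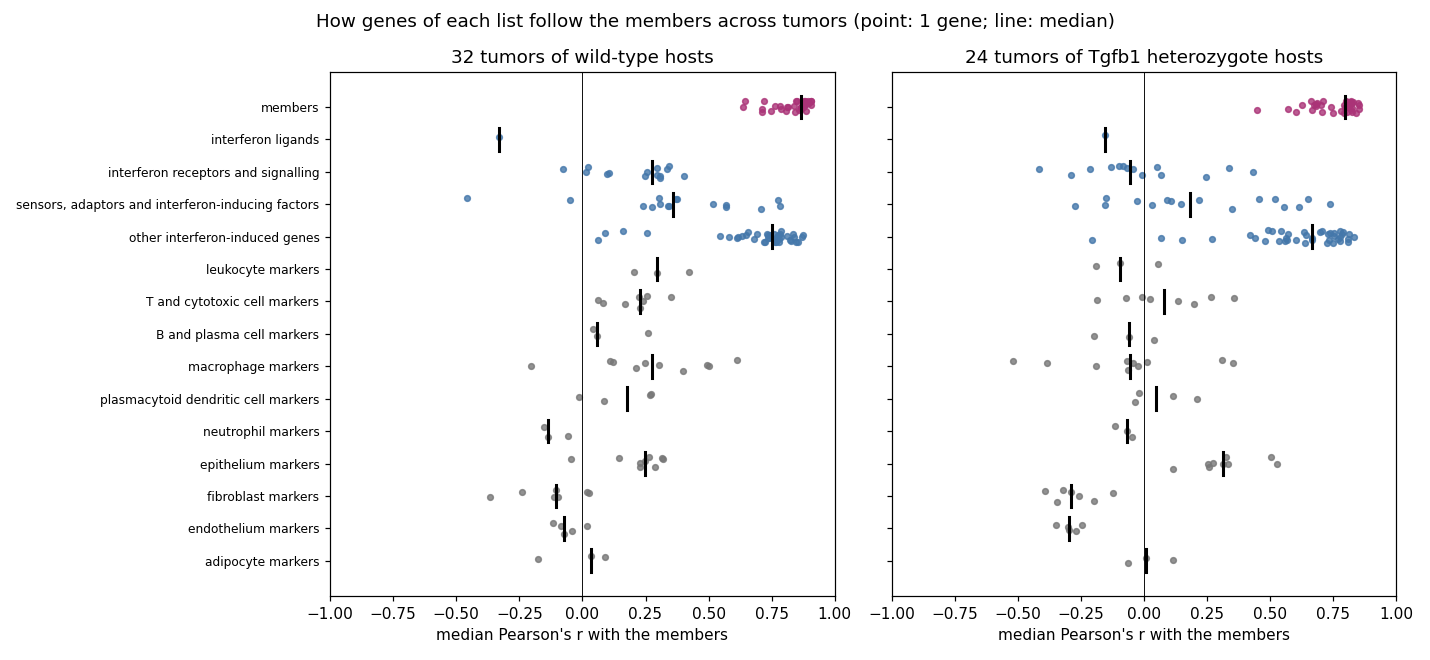
Median Pearson's r of each gene with the 37 members (points), by gene list, in wild-type (left) and Tgfb1 heterozygote hosts (right); black lines are the median over the genes of a list. The other interferon-induced genes lie near the members, with lines at 0.75 and 0.67, and the cell type markers lie nearer to 0.

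Cell type markers followed the members less closely than the other interferon-induced genes did, and in heterozygote hosts some lists went in 1 direction. The median r over genes was 0.29 and -0.10 for 3 leukocyte genes, 0.23 and 0.08 for 8 of 12 T and cytotoxic cell genes that passed the filter, and 0.28 and -0.05 for 10 macrophage genes. Of the macrophage genes 2 exceeded 0.5 in wild-type hosts, the highest being the activating antibody receptor Fcgr1 (0.61), and the mannose receptor Mrc1 was at -0.52 in heterozygote hosts. The plasmacytoid dendritic cell genes, 4 of 6 past the filter, had medians of 0.18 and 0.05. Most of these were dim: Siglech lay above the overall median on 24 arrays and Cd209d and Spib on 7 each, against 56 for Klk1. The epithelial genes were at 0.25 and 0.31. In heterozygote hosts all 9 were positive (0.11 to 0.53) and 2 exceeded 0.5, with Cldn7 highest. Fibroblast genes were at -0.10 and -0.29 and endothelial genes at -0.07 and -0.30. In heterozygote hosts all 7 fibroblast genes (-0.39 to -0.12) and all 5 endothelial genes (-0.35 to -0.24) were negative. In wild-type hosts the epithelial, fibroblast and endothelial lists each held both signs. Neutrophil genes were at -0.14 and -0.07, B and plasma cell genes at 0.06 and -0.06 and adipocyte genes at 0.03 and 0.01.

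Over all groups the mean level of the T and cytotoxic cell list (11 of 12 measured) ran from 4.94 to 7.50 in irradiated and from 5.01 to 6.33 in sham-irradiated wild-type hosts, and from 4.74 to 6.15 and from 4.89 to 5.55 in heterozygote hosts. The macrophage list (10 of 10 measured) ran from 9.06 to 11.63 and from 9.95 to 11.69 in wild-type, and from 8.98 to 11.55 and from 9.05 to 10.52 in heterozygote hosts, irradiated before sham. In wild-type hosts 7 of 8 tested T and cytotoxic cell genes had a positive irradiation difference, against 49.3% of all genes, with a median of 0.24. In heterozygote hosts 4 of 8 were positive, against 51.8% of all genes, with a median of -9.9e-05. An unadjusted p under 0.05 was reached by 0 of 8 in each genotype. Several of these genes were dim: they lay above the overall median on 9 (Cd8a) to 56 (Cd4) of 56 arrays. The part of these cells in the levels of the members was not tested.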

How the data were processed

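RNA of each tumor was hybridised to 1 Affymetrix array. The authors computed log2 probe set values with RMA, per the submitters' processing notes, and deposited those. The RMA version is not given here. Groups were taken from the sample titles.

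Of 45101 probe sets, 34958 carry 1 gene symbol, 932 several and 9211 none. Probe sets brighter than the overall median, 5.83, on 6 or more arrays were kept, and the brightest stood for its gene. limma 3.58.1 (R 4.3.3) was fitted with 4 group means over 56 arrays, with Benjamini-Hochberg adjustment over 12508 genes and a threshold of 0.05, and was tested on simulated data. The 95% intervals use 52 residual degrees of freedom. Array precision is limited by the number of arrays. The highest correlation of any pair of arrays was 0.99. Whether some tumors came from the same host is not stated, so p-values reflect only how these samples spread, which may be partly technical.

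The members and lists were chosen with earlier results of these data known. Genes were named by role: those with the lowest p in each comparison, and always Irf7, Stat2, Irf9, Irf1, Ifit1, Cxcl9 and Cxcl10. Of the pathway lists, genes of lowest p and the highest and lowest correlations were named; Tap1, Psmb8, Ptpn6, Ifnb1 and Ifng were chosen after their values were seen. Alternatives were other filters, all probe sets, quantile normalization, a trended variance, array weights, each genotype alone, the 18S control as covariate, omission of arrays with an 18S control below 11, and omission of each tumor. Python 3.11.15 with numpy 2.4.6, pandas 2.3.3 and matplotlib 3.10.9 was used for correlations, promoter searches and figures.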

Additional observations from a re-analysis of the deposited data

Results flagged for a closer look

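Parp9, an ADP-ribosyltransferase that works with Dtx3l, had an isolated high value among sham-irradiated wild-type hosts. Tumor 61 was at 11.46 (log2) and the next tumor at 10.72, a gap of 0.505 of the group's whole range. It was 1 of 74 combinations of group and gene looked at, and chance flags about 1 in 20 of them. The same tumor had 21 members more than 2-fold above the median of wild-type host tumors, and an 18S control of 9.49.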

How the results depend on the processing

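The number of members called was 0 in each of the 4 irradiation comparisons under each alternative and without each single tumor; at an unadjusted p under 0.05 there were at most 2 members without a single tumor and at most 3 under another setting. No paired analysis was possible because replicate numbers do not recur between groups. Of 618 values under the other settings, 590 were counted as unchanged, 23 turned sign, 4 lost and 1 gained a call. The cause was not tested. A gene or pair counted as unchanged kept its direction and its side of the threshold. A median of the members counted so if it moved less than the SD of a sham group's tumor medians, whatever its sign. The wild-type median, -0.03 with the 18S covariate, was among these. Other filters, all probe sets, a trended variance and each genotype alone leave a gene's difference as it is, so no sign could turn there. With array weights the difference in wild-type hosts was 0.13 for Irf9, 0.22 for Xaf1, 0.14 for Ifih1, 0.26 for Rtp4 and 0.21 for Ifi35, that of Parp14 in heterozygote hosts was -0.030, the genotype difference of Ifi35 was -0.20 and the average of Xaf1 was 0.0073. Without the arrays of low 18S control the wild-type difference was 0.27 for Xaf1, 0.48 for Ifih1, 0.25 for Eif2ak2, 0.22 for Rtp4 and 0.27 for Ifi35, that of Cxcl9 in heterozygote hosts was 0.23, the genotype difference of Ifi35 was -0.12 and the averages were 0.035 for Ifih1 and 0.048 for Xaf1. With the 18S covariate the wild-type difference was -0.13 for Irf7, -0.12 for Zbp1, -0.022 for Parp9 and -0.12 for Gbp3. Without the 2 tumors farthest from the median, r was 0.38 for Stat2 with Irf9 in heterozygote hosts, and in wild-type hosts 0.37 for Cxcl9 with Ifng, 0.37 for Cxcl9 with Cd3e, -0.068 for Irf7 with Ptprc and -0.038 for Irf7 with Cd68, while Irf7 with Epcam in heterozygote hosts passed at 0.58. After quantile normalization Cxcl9 with Cd3e in heterozygote hosts was 0.43 and did not pass.

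Leaving out 1 tumor turned the sign of 26 of the gene differences chosen by the naming rule. The named pairs were not run without each single tumor. Over all members, leaving out 1 tumor turned 31 of 37 differences in heterozygote and 17 of 37 in wild-type hosts. In heterozygote hosts the difference ranged from -0.13 to 0.51 for Cxcl10, -0.54 to 0.20 for Cxcl9, -0.44 to 0.085 for Gbp3, -0.058 to 0.26 for Ifi35, -0.51 to 0.020 for Ifit1, -0.37 to 0.13 for Ifit2, -0.0055 to 0.38 for Irf1, -0.54 to 0.029 for Irf7, -0.37 to 0.0046 for Irf9, -0.12 to 0.25 for Parp14, -0.35 to 0.030 for Parp9, -0.38 to 0.043 for Rtp4, -0.22 to 0.10 for Stat2, -0.38 to 0.059 for Trim30a, -0.40 to 0.15 for Xaf1 and -0.51 to 0.13 for Zbp1. In wild-type hosts it ranged from -0.15 to 0.041 for Eif2ak2, -0.083 to 0.098 for Ifi35, -0.17 to 0.16 for Ifih1, -0.022 to 0.44 for Ifit1, -0.086 to 0.078 for Irf9, -0.094 to 0.10 for Rtp4, -0.20 to 0.051 for Xaf1 and -0.029 to 0.27 for Zbp1. Of the other members printed, the heterozygote range was -0.29 to 0.51 for Gbp2, -0.17 to 0.38 for Igtp, -0.20 to 0.47 for Oas3, -0.19 to 0.40 for Oasl1, -0.00070 to 0.51 for Mx1 and -0.36 to 0.14 for Bst2, and the wild-type range was -0.051 to 0.34 for Mx1, -0.30 to 0.014 for Rsad2, -0.10 to 0.18 for Oasl2, -0.11 to 0.16 for Bst2 and -0.086 to 0.098 for Ddx58. The genotype difference of Ifi35 ranged from -0.049 to 0.27 and the average of Xaf1 from -0.26 to 0.015. The settings for the correlations among all members (quantile normalization, arrays of low 18S control, the 2 farthest tumors, each single tumor) were chosen after seeing the data; without 1 tumor the median r was 0.81 to 0.85 in wild-type and 0.73 to 0.78 in heterozygote hosts.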
